A study of Mus musculus with 4 samples.

Results

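The imprinted genes examined here were 36 gene rows of a count table, taken by symbol from a list of known imprinted mouse genes, out of 47937 gene rows in all. All 36 symbols matched 1 row each. They fell into 17 loci on 10 chromosomes, and 16 of the genes lie on chromosome 7. Total RNA had been sequenced from mouse embryonic fibroblasts (MEF cells), which are connective tissue cells grown from mouse embryos. The untreated group was wild-type MEF cells, and the genistein group was MEF cells exposed to 50 µM genistein, a soy isoflavone, for 24 h. Each group had 2 libraries. The control libraries are labelled untreated, a word that the methods use for DMSO alone, the solvent, in other assays of these cells. Nor is it given whether the 2 libraries of a group came from separate cultures, so the p-values measure the spread between these libraries, which may be technical.

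An imprinted gene is expressed mainly from the copy inherited from one parent. The choice is set by DNA methylation laid down in the egg or the sperm at an imprinting control region, and many of these regions lie at promoters of long non-coding RNAs (lncRNAs). Imprinted genes sit in clusters, and many act on fetal growth: IGF2 is a growth factor, while IGF2R, CDKN1C and GRB10 restrain growth. Most are highly expressed in the embryo and placenta and are turned down after birth. Counts per gene do not show which parental copy a read came from, so nothing below measures imprinting itself.

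The Peg3 promoter is shown because it serves a pair of members that were read from opposite strands with unlike results. The annotated starts of Peg3 and Usp29 lie 147 bp apart. The RefSeq promoter windows (build GRCm38.p6, 250 bases before to 50 after the start) of these genes share 263 identical bases. The Peg3 window, at chr7:6730370-6730669 on the minus strand, is written 5′ to 3′ with CG pairs, the sites of DNA methylation in mammals, in capitals.
Peg3: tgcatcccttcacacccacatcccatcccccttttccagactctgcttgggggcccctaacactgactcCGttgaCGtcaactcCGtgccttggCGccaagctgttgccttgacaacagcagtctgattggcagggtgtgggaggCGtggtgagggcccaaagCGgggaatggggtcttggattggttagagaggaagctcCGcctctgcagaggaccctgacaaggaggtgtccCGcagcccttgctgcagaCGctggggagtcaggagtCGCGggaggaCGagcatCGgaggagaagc
It holds 13 CG pairs, and 37.9% of all 32851 promoter windows of this length hold at least as many. Windows were found for 30 of the 36 members, 45 windows in all. Their median was 13 CG pairs (range 0 to 45), against 7 over all windows. Peg10 and Sgce, the other pair that starts back to back, with starts 99 bp apart, had no window.

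Genistein changed imprinted genes in both directions, and members of the Peg10-Sgce and Kcnq1 loci were called in opposite directions. Igf2, Igf2r, Peg3, Meg3, Cd81 and Sgce rose by 1.69- to 2.12-fold, while Peg10 fell to 0.534, Peg12 to 0.318 and Asb4 to 0.166 of the untreated level. Asb4 passed a filter on low counts only through the untreated libraries, where it was high. Kcnq1ot1, Snrpn, H19, Usp29, Mirg and Zrsr1 did not pass the test. Dlk1 and Mest had no read in any library.

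Each library held 28591958 to 31464284 counts over genes and repeats, of which the 36 genes took 0.185% and 0.189% in untreated cells and 0.269% and 0.267% with genistein. A filter on low counts kept 25 of the 36. The test was edgeR's quasi-likelihood fit, its p-values were adjusted (Benjamini-Hochberg) across every kept gene and repeat, and a gene was called at an adjusted p under 0.05. A normalised count is a count scaled to a common library size by TMM. Of the 25 tested members, 13 were called higher (52%) and 6 lower (24%). Among all 16240 tested genes 33.5% were called higher and 38.2% lower, so that a call by itself says little. The thresholds of the study (adjusted p under 0.05, absolute log2 fold change over 1 and mean normalised count over 100) were passed by 2 higher members, Peg3 and Meg3, and by 1 lower member, Peg12. Of all tested genes, 3.92% passed them as higher and 4.16% as lower. Without untreated 1 the count of higher members was 1, since Meg3 then had a log2 fold change of 0.997. The median log2 fold change was 0.25 over the tested members and -0.03 over all tested genes. Members usually expressed from the paternal copy were 7 higher and 3 lower of 14 tested. Those usually expressed from the maternal copy were 4 higher and 3 lower of 9 tested. The usual copy is a general label that was not measured in these cells and may not hold in them. Gnas and Blcap, whose transcripts differ in the copy they are read from, were counted apart, and both rose. Asb4 passed the filter through the untreated libraries and Plagl1 mainly through the genistein libraries.

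The label was checked against fibroblast markers. Of 15 such genes, 13 passed the filter, and the summed normalised count of the 15 lay from 436338 to 473073 in the 4 libraries, although Thy1 had no read and Lum had at most 10. All 13 tested fibroblast markers were called, 4 higher and 9 lower. Dcn (2.11-fold) and Fbln1 (2.35-fold), both of the extracellular matrix, rose past the thresholds, while Lox fell to 0.567 and Pdgfrb to 0.603 of the untreated level, so that fibroblast genes moved by as much as many imprinted genes. Several defining markers of other cells were at or near 0 in each library, with Epcam, Adgre1, Aif1, Rbfox3, Myod1 and Cdx2 at 0 and Ptprc at no more than 1 count. The summed markers of other cells moved with the treatment too. The 6 macrophage markers went from 194 to 210 normalised counts in untreated libraries to 561 to 576 with genistein, through Csf1r and Cd68. The 6 myogenic markers went from 31.8 to 37.0 up to 265 to 286, through Des. The 6 epithelial markers went from 506 to 511 down to 168 in both genistein libraries, through Krt8 and Krt18. The 6 endothelial markers went from 24.97 to 30.7 up to 85.3 to 98.2, through Kdr. The 6 pluripotency markers summed to 36.0 and 37.1 in untreated cells and to 50.6 and 62.8 with genistein. The 6 trophoblast markers summed to 13.99 and 8.47 against 5.63 and 4.05, all from Eomes, and the 6 neuronal markers to 2.997 and 6.35 against 9.38 and 8.10. Whether such shifts had a part in the changes of imprinted genes was not tested, and in bulk RNA fewer cells of a type and less RNA per cell cannot be told apart.

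**Figure D1:**
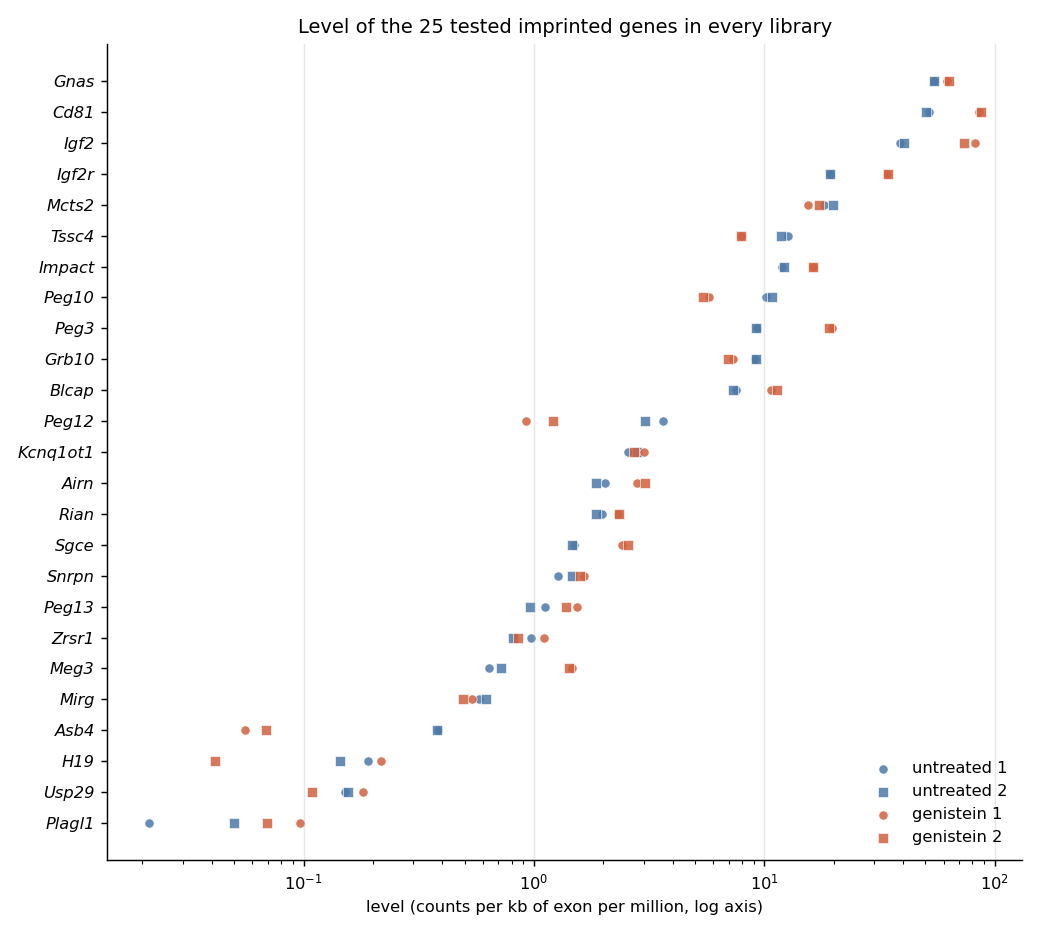
Level of each tested imprinted gene in each of the 4 libraries, in RPKM (log axis), ordered by the untreated mean; circles and squares are replicates 1 and 2. Gnas, Cd81 and Igf2 stood highest in untreated cells at 54.6, 51.0 and 39.6, and Plagl1 lowest at 0.0356.

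Levels per length spanned a wide range, since the highest member, Gnas, had an RPKM (counts per kilobase of exon, scaled for library size) of 54.6 in untreated cells and Meg3 of 0.679. On this scale Cd81 (51.0) followed Gnas, then came Igf2 (39.6), Igf2r (19.3), Mcts2 (18.9), Tssc4 (12.2), Impact (12.1), Peg10 (10.5), Peg3 (9.24) and Grb10 (9.19). Within this order the untreated libraries of Igf2r and Mcts2, of Tssc4 and Impact, and of Peg3 and Grb10 overlapped, while those of Gnas, Cd81, Igf2 and Igf2r did not overlap one another. With genistein Cd81 (86.3), Igf2 (77.98) and Gnas (62.6) led.

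Igf2 encodes a fetal growth factor and is usually read from the paternal copy, while the lncRNA H19, from the maternal copy, is its neighbour under a shared control region. Igf2 (chromosome 7, 142650766 to 142666816, GRCm38) was counted at 6635 and 6932 (normalised) in untreated cells and 14061 and 12656 with genistein. Both genistein libraries lay far above both untreated libraries, and the rise was 1.97-fold (log2 fold change 0.98, SE 0.05, adjusted p = 6.34e-11). Igf2 moved from place 679 to place 171 among the 16240 tested genes by mean normalised count. It stopped just short of the fold threshold of 1, and passed it at 1.02 with scaling factors from genes alone and at 1.05 with library totals. It also depended on single libraries, at 1.005 without untreated 2, 1.05 without genistein 2, 0.94 without untreated 1 and 0.90 without genistein 1.

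H19 (chromosome 7, 142575529 to 142578143) had only 14 and 10 raw counts in untreated cells and 17 and 3 with genistein. The groups overlapped, and the log2 fold change of -0.34 (SE 0.53, adjusted p = 0.579) rested on genistein 2: without genistein 1 it was -1.97 (adjusted p = 0.029), and without genistein 2 it was 0.37 (adjusted p = 0.533). Per length, the untreated level was 39.6 for Igf2 and 0.167 for H19, in RPKM. The log2 ratio of H19 to Igf2 counts was -8.89 and -9.35 in untreated cells and -9.78 and -12.03 with genistein (exact permutation p = 0.333, two-sided). With 2 libraries against 2 that is the smallest p this test can give.

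The antisense gene Igf2os overlaps 1.7% of the Igf2 exon bases on the opposite strand. It had 265 and 238 raw counts in untreated cells and 118 and 127 with genistein, a log2 fold change of -1.11 (SE 0.11, adjusted p = 2.07e-07). So Igf2os fell while Igf2 rose. The kit kept strand, but the strand setting of the counter is not given in the sources used here, so reads of overlapping exons may have been shared.

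The receptor IGF2R carries IGF2 to the lysosome for breakdown, and its gene is usually read from the maternal copy. Igf2r (chromosome 17, 12682406 to 12769664) had 5349 and 5389 normalised counts in untreated cells and 9459 and 9597 with genistein. It rose 1.77-fold (log2 fold change 0.83, SE 0.04, adjusted p = 8.59e-12), and the groups were far apart. The lncRNA Airn, which starts in an Igf2r intron on the other strand and silences the paternal Igf2r copy in the embryo, rose as well. Airn (chromosome 17, 12741311 to 12860136) went from 219 and 200.1 to 300.1 and 327 normalised counts, 1.49-fold (log2 fold change 0.58, SE 0.10, adjusted p = 5.32e-05). No exon of Airn overlaps one of Igf2r. The strand setting of the counter is not given, however, so in total RNA reads of unspliced Igf2r may have been counted for Airn. The share of each is uncertain, and this was not tested. The log2 ratio of Airn to Igf2r counts was -4.61 and -4.75 in untreated cells and -4.98 and -4.88 with genistein (exact permutation p = 0.333, two-sided), a difference of -0.25.

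The Dlk1-Dio3 cluster on chromosome 12 holds the paternally expressed Dlk1, a membrane protein that holds back fat cell formation, and the maternally expressed lncRNAs Meg3, Rian and Mirg. Dlk1 (109452823 to 109463336) had 0 counts in all 4 libraries, which allows up to 3 counts, or 2.81 to 3.18 normalised counts, in a library. Such limits cover counting error only. Meg3 (109541001 to 109571726) rose in both genistein libraries, from 347 and 389 to 789.5 and 766 normalised counts. Its rise was 2.12-fold (log2 fold change 1.08, SE 0.07, adjusted p = 6.15e-10), one of the 2 past the thresholds.

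Rian and Mirg lie downstream of Meg3 on the same strand and moved less. Rian, the host of a series of small nucleolar RNAs, had 1078 and 1017 normalised counts in untreated cells and 1269 and 1273 with genistein (log2 fold change 0.28, SE 0.05, adjusted p = 0.000144). Mirg, the host of microRNAs, had 126 and 136 in untreated cells and 117 and 107 with genistein. The Mirg groups did not overlap, but its log2 fold change of -0.22 (SE 0.13, adjusted p = 0.153) did not pass. The 15 microRNA rows inside Mirg summed to 19, 17, 25 and 24 raw counts in untreated 1, untreated 2, genistein 1 and genistein 2, and the 13 small nucleolar RNA rows inside Rian to 58, 62, 69 and 83. These libraries hold long fragments, so mature small RNAs were not measured.

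**Figure D2:**
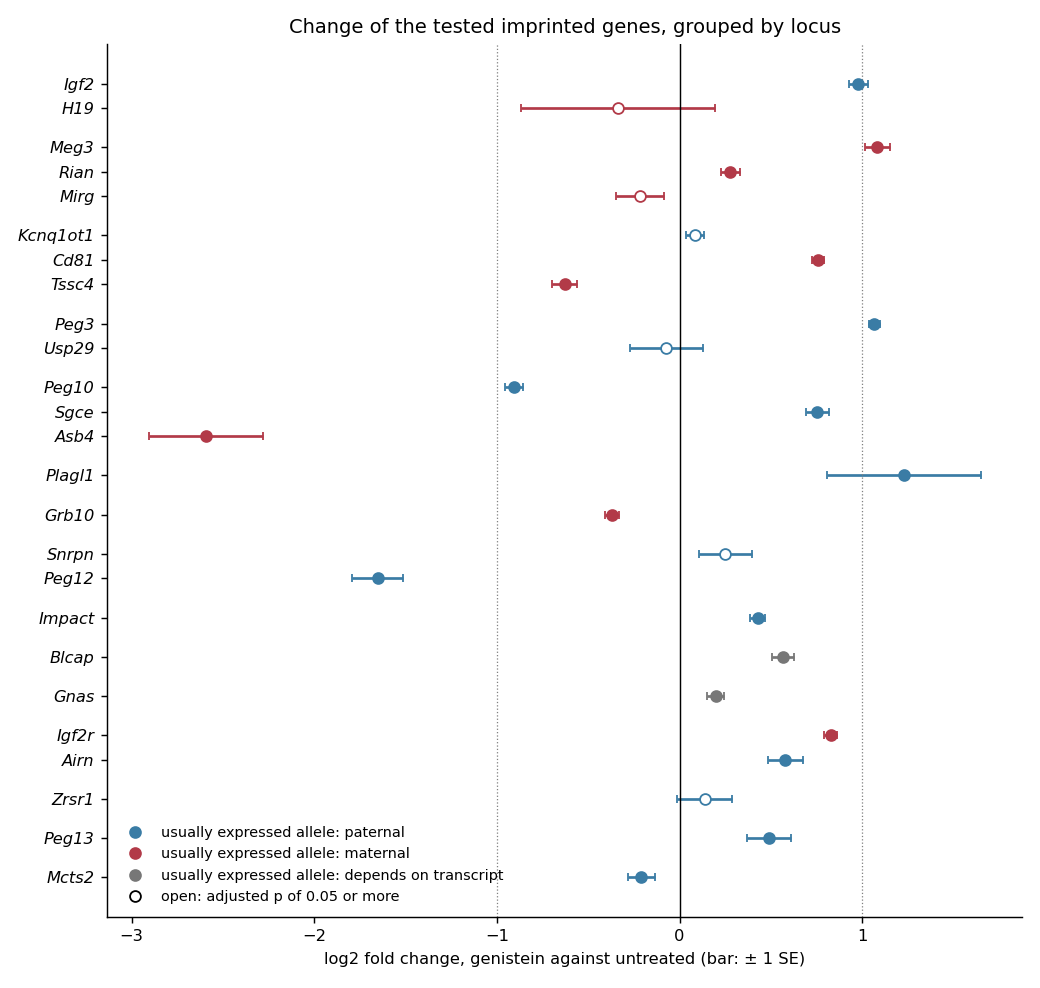
Log2 fold change of the 25 tested imprinted genes with genistein (bar, 1 standard error; 2 libraries per group), grouped by locus and coloured by the parental copy that is usually expressed; dotted lines mark 1 and -1. Sgce (0.75) and Peg10 (-0.91) were called in opposite directions, as were Cd81 (0.76) and Tssc4 (-0.63).

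On distal chromosome 7 the lncRNA Kcnq1ot1, from the paternal copy, silences a string of genes that are usually read from the maternal copy. Kcnq1ot1 (143203458 to 143296549) had 7154 and 7839.6 normalised counts in untreated cells and 8347 and 7549 with genistein. The groups overlapped, and the log2 fold change was 0.08 (SE 0.05, adjusted p = 0.151). It passed the test, still as a small change, with scaling factors from genes alone (0.13, adjusted p = 0.0378), with library totals (0.15, adjusted p = 0.0141), without untreated 2 (0.15, adjusted p = 0.0254) and without genistein 2 (0.16, adjusted p = 0.00307). Kcnq1, whose gene encloses Kcnq1ot1 on the other strand, had no read in any library.

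The other members of this locus were of 2 kinds in these cells. Cdkn1c, an inhibitor of cyclin-dependent kinases, Ascl2, a transcription factor of the trophoblast, and Slc22a18, a transporter, had 0 counts in both untreated libraries. In genistein 1 and genistein 2 they had 1 and 2, 1 and 2, and 3 and 7 raw counts, so their detection with genistein rests on few reads. Phlda2, which limits placental growth, had 1 and 2 against 1 and 0. None of these 4 was tested.

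Cd81 and Tssc4, which lie on the same side of Kcnq1ot1 as Ascl2, were well expressed and went opposite ways. Cd81 (143052739 to 143067934), a tetraspanin of the cell surface, had 4475 and 4319 normalised counts in untreated cells and 7368 and 7498 with genistein, a rise of 1.69-fold (log2 fold change 0.76, SE 0.03, adjusted p = 3.43e-12). Tssc4 (143069249 to 143071093), which begins shortly after Cd81 ends, went from 699 and 651 to 437 and 436. Its log2 fold change was -0.63 (SE 0.07, adjusted p = 2.86e-07). The groups were apart for both genes. Trpm5, which overlaps Tssc4 on the other strand, had no read.

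In the Peg3 domain of proximal chromosome 7, Peg3 rose and its partner across the promoter shown above did not. Peg3 (6703892 to 6730431), which encodes a large zinc finger protein, had 3690.1 and 3680.0 normalised counts in untreated cells and 7819 and 7623 with genistein. This was a 2.10-fold rise (log2 fold change 1.07, SE 0.03) with the smallest adjusted p of the members (4.77e-14). Usp29 (6730578 to 6967219), which encodes a ubiquitin protease, had 81.9 and 84.7 normalised counts in untreated cells and 98.5 and 58.7 with genistein. Its genistein libraries lay on either side of the untreated ones (log2 fold change -0.07, SE 0.20, adjusted p = 0.76). The log2 ratio of Usp29 to Peg3 counts was -5.49 and -5.44 in untreated cells and -6.31 and -7.02 with genistein (exact permutation p = 0.333, two-sided). The difference of -1.20 was -0.84 without genistein 2 and -1.55 without genistein 1. Zim1, the maternally expressed neighbour, had 1 to 4 raw counts and was not tested.

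Peg10 and Sgce on chromosome 6 also begin back to back, are both usually read from the paternal copy, and moved apart. Peg10 (4747306 to 4760517), a gene derived from a retrotransposon and needed for the placenta, went from 2026 and 2153 to 1149 and 1080.0 normalised counts, that is to 0.534 of the untreated level (log2 fold change -0.91, SE 0.05, adjusted p = 7.42e-11). Sgce (4674350 to 4747207), the epsilon sarcoglycan of the cell membrane, went from 473 and 466 to 769 and 816, a 1.69-fold rise (log2 fold change 0.75, SE 0.06, adjusted p = 1.54e-08). The log2 ratio of Sgce to Peg10 counts was -2.10 and -2.21 in untreated cells and -0.58 and -0.40 with genistein. This difference of 1.66 was many times the spread between replicates (pooled SD 0.10), although the exact permutation p again was 0.333 (two-sided). Leaving out each library gave 1.57 to 1.75. No exon of another gene overlaps those of Peg10 or Sgce.

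Asb4, a substrate receptor of a ubiquitin ligase from the same region of chromosome 6, fell like Peg10. Its change was the largest on the log2 scale among the tested members. Asb4 passed the filter only through the untreated libraries, where it was high, so its fall and its rank are tied to that filter. It had 45 and 42 raw counts in untreated cells and 7 and 8 with genistein (log2 fold change -2.59, SE 0.31, adjusted p = 1.40e-06). Its mean normalised count was too low for the study's thresholds. Mest, farther along chromosome 6, encodes a hydrolase-like protein of mesoderm and had 0 counts in all 4 libraries, although Copg2, which overlaps its end on the other strand, had 932 to 1076 raw counts.

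**Figure D3:**
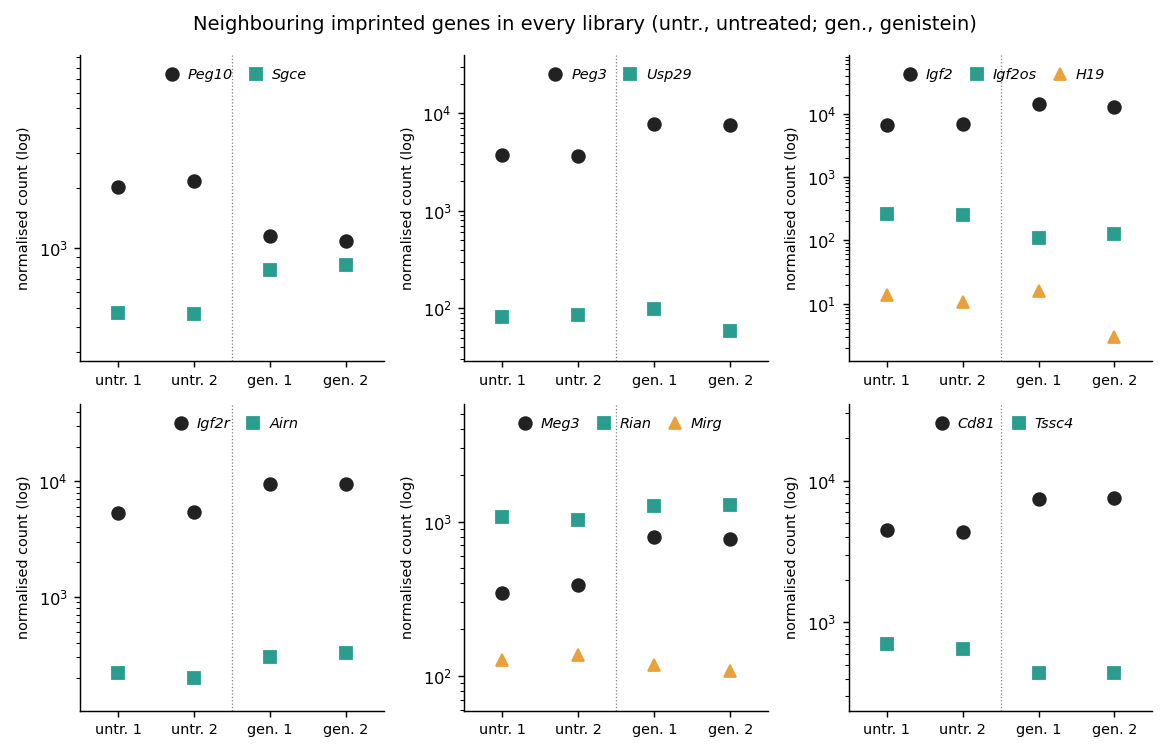
Normalised counts (log axis) of neighbouring imprinted genes, with Igf2os added, in each of the 4 libraries; each symbol is 1 gene in 1 library. Peg10 and Sgce approached each other with genistein, Peg3 rose while Usp29 did not pass the test, and Cd81 and Tssc4 moved apart.

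The Snrpn-Ndn domain of chromosome 7, the mouse counterpart of the Prader-Willi region, is read from the paternal copy. Snrpn (59982495 to 60140219), a core protein of the spliceosome, had 81.9 and 94.2 normalised counts in untreated cells and 107 and 102 with genistein. The groups were just apart, but the log2 fold change of 0.25 (SE 0.15, adjusted p = 0.137) did not pass. Its exons overlap those of Snurf (10.0% of the Snrpn exon bases) and of Gm38393 (27.3%) on the same strand, so the share of reads given to Snrpn is uncertain. Gm38393 had a log2 fold change of 0.30 (SE 0.12, adjusted p = 0.0359) and Snurf of 0.08 (SE 0.29, adjusted p = 0.813). Snrpb, a near copy of Snrpn on chromosome 2, fell from a mean of 7072 to 3905 normalised counts (log2 fold change -0.86, SE 0.03, adjusted p = 6.1e-13). Any reads that match both genes are uncertain too.

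Peg12, an intronless gene of the same domain and a relative of the FRAT proteins of Wnt signalling, fell. It had 287 and 240.3 normalised counts in untreated cells and 73.1 and 95.1 with genistein, well apart (log2 fold change -1.65, SE 0.14, adjusted p = 2.09e-08). Ndn and Magel2, of the MAGE family, had at most 3 and 1 raw counts in a library and were not tested. Mkrn3, an intronless gene between Magel2 and Peg12 that is no member, had 56 to 76 raw counts and did not pass the test (log2 fold change 0.17, SE 0.18, adjusted p = 0.401).

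Gnas (chromosome 2, 174284320 to 174346744) encodes the stimulatory G protein alpha subunit and, from other promoters, transcripts of opposite imprinting that the row adds together. It had 18244 and 18330.2 normalised counts in untreated cells and 20789.8 and 21131.5 with genistein, a rise of 14.6% (log2 fold change 0.20, SE 0.05, adjusted p = 0.00106). The antisense Nespas, which overlaps 8.8% of its exon bases, differed by 0.12 on the log2 scale (SE 0.08, adjusted p = 0.16). Blcap, a small membrane-associated protein, went from 688 and 665 to 973 and 1033 normalised counts. Blcap (log2 fold change 0.57, SE 0.06, adjusted p = 2.40e-07) rose, while Nnat, a membrane protein gene inside its intron, had 2 raw counts in genistein 2 and none elsewhere. Mcts2, a retrocopy inside an intron of H13, had 493 and 539.9 normalised counts in untreated cells, 424 and 471 with genistein, and a log2 fold change of -0.21 (SE 0.08, adjusted p = 0.0216). Reads of Mcts2 can align to its parent Mcts1, which had a log2 fold change of -0.31 (SE 0.06, adjusted p = 0.000191). Reads of unspliced H13, on the same strand with 4838 to 5587 raw counts, can fall on Mcts2. The share of each gene is therefore uncertain. The Mcts2 call was lost with DESeq2 (adjusted p = 0.126), when genes alone set the scaling (0.0627), when totals did (0.116), without untreated 2 (0.173) and without genistein 1 (0.177).

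Single-gene loci gave the remaining values. Impact, which restrains the translation control kinase GCN2, went from 1824 and 1877 normalised counts to 2488 in both genistein libraries and rose by 0.43 (SE 0.04, adjusted p = 4.59e-08) on the log2 scale. Grb10, an adaptor that inhibits the insulin and IGF1 receptors, went from 2484 and 2514 to 1980.4 and 1889 and fell by 0.37 on the log2 scale (SE 0.04, adjusted p = 3.72e-07). The lncRNA Peg13, which lies in an intron of Trappc9 on the same strand, went from 158 and 136 to 218 and 194 and rose by 0.49 (SE 0.12, adjusted p = 0.0016). Trappc9 itself had a log2 fold change of 0.65 (SE 0.05, adjusted p = 4.81e-09). In total RNA, reads of unspliced Trappc9 can fall on Peg13, so the share of each is uncertain, and this was not tested. Zrsr1, a retrocopy of the splicing factor gene Zrsr2, had 131 and 109 normalised counts in untreated cells and 149 and 114 with genistein, so its groups overlapped. The log2 difference of Zrsr1 was 0.14 (SE 0.15, adjusted p = 0.428), with Zrsr2 at -0.50 (SE 0.05, adjusted p = 3.82e-07). Plagl1, a zinc finger factor that restrains proliferation, had 5 and 11 raw counts in untreated cells and 24 and 16 with genistein (log2 fold change 1.23, SE 0.42, adjusted p = 0.0155). The Plagl1 call was lost without untreated 1 (0.73, adjusted p = 0.201), without genistein 1 (0.97, adjusted p = 0.138) and with DESeq2 (1.22, adjusted p = 0.147). Zdbf2 had 1 to 14 raw counts and was not tested.

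Other genes of imprinted regions were followed as a list of 43, of which 22 were tested. There were 6 higher and 8 lower (27.3% and 36.4%), beside 33.5% and 38.2% of all tested genes. With library totals in place of TMM the balance turned, to 9 higher and 7 lower. The median log2 fold change over all genes moved too, from -0.03 to 0.04. The share of all genes called with library totals was not computed. The largest changes among those called were a fall of Slc38a4, an amino acid transporter (log2 fold change -3.40, SE 0.23, adjusted p = 1.46e-09), a fall of Ddc, the aromatic amino acid decarboxylase gene next to Grb10 (-2.13, SE 0.09, adjusted p = 5.11e-12), and rises of the decoy receptor Tnfrsf23 (1.53, SE 0.13, adjusted p = 2.14e-08) and of Ampd3, an AMP deaminase (1.17, SE 0.21, adjusted p = 0.000101).

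Factors known to set or keep imprints were followed as a list of 17, of which 14 were tested, with 4 higher and 8 lower (28.6% and 57.1%, against 33.5% and 38.2% of all tested genes). Ctcf, which insulates Igf2 on the maternal copy, had the largest fall (log2 fold change -1.23, SE 0.04, adjusted p = 4.77e-14). The DNA methyltransferase gene Dnmt3b (-1.15, SE 0.12, adjusted p = 1.60e-07), Mbd3 of the NuRD complex (-1.09, SE 0.04, adjusted p = 1.37e-12) and Trim28 (-0.95, SE 0.04, adjusted p = 6.90e-12), the partner of KRAB zinc fingers at imprinting control regions, also fell. The 4 that rose, named after their values were seen, did so by less: Arid4b by 0.47 and Arid4a by 0.43 on the log2 scale, and Dnmt3a and Zfp445 by 0.11 each. Without untreated 2 or without genistein 2, the higher count was 2.

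The partners of IGF2 were followed as a list of 11, of which 10 were tested, with 6 higher and 3 lower (60% and 30%, against 33.5% and 38.2% of all tested genes). With 10 genes these shares are a description only. Igfbp2, an IGF-binding protein, rose by 1.93 (SE 0.23, adjusted p = 1.49e-06) on the log2 scale. Igf1, the sister ligand, fell by 0.73 (SE 0.06, adjusted p = 3.39e-08). The insulin receptor gene Insr (0.66, SE 0.05, adjusted p = 1.36e-09) and Igfbp6 (0.54, SE 0.04, adjusted p = 1.66e-09) rose.

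**Figure D4:**
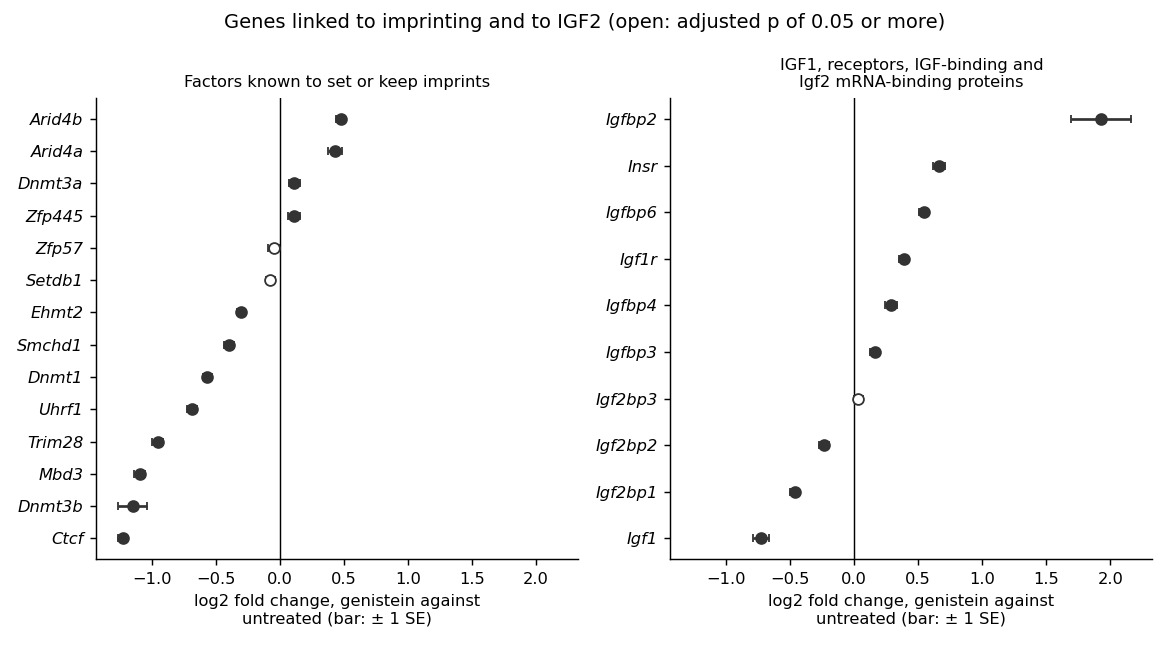
Log2 fold changes with genistein (bar, 1 standard error; 2 libraries per group) of the tested factors known to set or keep imprints (left, 14 genes) and of the tested IGF2 partners (right, 10 genes). Ctcf, Dnmt3b, Mbd3 and Trim28 lay lowest on the left, from -1.23 to -0.95.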

How the data were processed

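Total RNA of MEF cells was measured in 2 untreated and 2 genistein libraries. The authors depleted ribosomal RNA, made stranded libraries, trimmed paired reads with Trim Galore, aligned them to mm10 with STAR and counted them with TEtranscripts over GENCODE genes and repeats. The deposited table holds whole-number counts for each gene and repeat subfamily, with no normalisation. The strand option of the counter is not given in the sources used here, and reads shared by overlapping or near-identical genes are uncertain.

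Members were found by symbol through GENCODE M21 (GRCm38, the assembly of mm10). The count release was an earlier one, so exon lengths are approximate. The 1 row with no name (0.00208% to 0.00314% of counts) was left out. Counts of genes and repeats were fitted together with edgeR 4.0.16 in R 4.3.3: filterByExpr left 16240 genes and 1118 repeats, TMM set the scaling, and the quasi-likelihood test was adjusted by Benjamini-Hochberg over all kept entries. Normalised counts are counts over effective library size, multiplied by the mean of those sizes. The standard error is the log2 fold change divided by the square root of F. Locus ratios were log2 ratios of raw counts, compared by an exact permutation test. Library totals were 28591958 to 31464284, and replicates differed beyond sampling noise (chi-square over its degrees of freedom 5.48 in untreated and 12.1 with genistein). The script was tested on simulated data.

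Contrast loci, and other members called with an absolute log2 fold change over 1, were to be given by library, and at most the 4 largest called changes of each other list. Igf2os and genes overlapping members were added because results turn on them. The members and lists were chosen with earlier results of these data known. Alternatives covered scaling, filter, DESeq2 1.42.0, thresholds, overlap, a replicate block and each library left out.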

Additional observations from a re-analysis of the deposited data

How the results depend on the processing

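Counts of 13 higher and 6 lower members stayed within 1.5 times under each scaling, filter, DESeq2, replicate block and left-out library. The replicate block gave 13 higher and 6 lower, a median of 0.25, and changed no call; deviations of libraries with a shared number had a correlation of -0.034 (2 pairs), which does not establish pairing. Among members whose exons overlap no exon of another gene, 7 were higher and 5 lower, so every tested gene of this smaller set was called. Of all tested genes, 33.5% were called higher and 38.2% lower. In this set 1 higher member passed the study's thresholds and the median log2 fold change was 0.46. The median was 0.32 with library totals and 0.50 with no filter, beside 0.04 and 0.01 over all genes in those fits. The fit with no filter took in members that the filter had removed, with at most 14 raw counts in a library. Across fits that left out a library the median of the members was 0.22 to 0.34. Members higher past the thresholds were 1 to 3 across those fits and 0 with edgeR's test against a log2 fold change of 1 (2 at an unadjusted p under 0.05, and 2 past the thresholds with DESeq2). With a mean count over 10, 3 higher and 2 lower members passed. The added ones were Plagl1, whose call depended on the fit, and Asb4, which passed the filter only through the untreated libraries. The share of all tested genes at this lower limit was not computed. Imprint control factors called higher were 2 with no filter, 2 with DESeq2 and 2 to 4 with a library left out; the cause was not tested. Of 150 values of single members under other fits, 144 kept their side of the threshold, and of 100 with a library left out, 93 did; none reversed a called direction. The changed sides were those of H19, Kcnq1ot1, Plagl1 and Mcts2. Log2 differences of locus ratios lay from -2.90 to -0.66 for H19 to Igf2 and from -0.32 to -0.18 for Airn to Igf2r when a library was left out. At the lowest counts precision was limited, as the standard errors of H19 (0.53) and Plagl1 (0.42) show.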
